A study of Mus musculus with 6 samples.

Results

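The genes described here are 33 markers of leukocytes and Langerhans cells, measured in RNA of hair germ stem cells sorted from mouse back skin. They were chosen as a fixed list of gene symbols, and all 33 were found, each under 1 identifier, among 46517 genes in the deposited files. By role they comprise 6 pan-leukocyte genes, 2 genes used to mark Langerhans cells, 13 genes of mononuclear phagocytes (monocytes and macrophages), 10 genes of T cells and NK cells, and 2 of mast cells.

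The groups were LEF1_TCF7dKO (called the double knockout below), LEF1cKO and WT, with 2 libraries each. The double knockout mice carried Sox9-CreER, the YFP reporter R26-lox-stop-lox-YFP, Lef1fl/fl and Tcf7-/-. LEF1cKO mice carried Sox9-CreER, the same reporter and Lef1fl/fl, and WT mice carried Sox9-CreER and the reporter alone. All were 60 days old, of mixed sex, with cells taken 3 days after depilation. CreER is an inducible Cre, and here it acts only in cells that express Sox9 and in their descendants, so the Lef1 deletion is limited to these. The Tcf7-/- allele, in contrast, is present in every cell of the double knockout mice, leukocytes included. Cells were sorted by P-cadherin, CD34, Sca-1, integrin b1 and the YFP reporter, and no leukocyte surface protein is named among them. The labels do not say whether the 2 libraries of a group came from separate animals or pools, so p-values reflect only how far these libraries differ, a spread that may be technical.

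Skin holds several resident leukocytes. Langerhans cells are antigen-presenting cells of the epidermis and upper hair follicle that carry langerin (Cd207), macrophages and dendritic cells populate the dermis around the follicle, gamma-delta T cells sit between keratinocytes, and mast cells lie in the dermis. Leukocytes share CD45 (Ptprc) and actin regulators of their own, while macrophages depend on the CSF1 receptor and on the transcription factor PU.1 (Spi1) and make the complement protein C1q. TCF-1, the product of Tcf7, and LEF-1 are best known among leukocytes for their part in T cell development.

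The libraries held 40480684 to 63220003 expected counts, and 19640 genes were tested. The 12 genes listed for the follicle epithelium include Krt14, Krt5 and Cdh3. Together they reached 15670 and 20010 TPM in the double knockout, 9587 and 12670 TPM in LEF1cKO and 10180 and 10540 TPM in WT. Most of each sum came from Krt5 and Krt14, whose means in the double knockout were 7390 and 7534 TPM. The sums therefore say little about the other genes of the list. The 31 leukocyte genes other than Epcam and Thy1 summed to 690.5 and 554 TPM in the double knockout, 210.5 and 233 TPM in LEF1cKO and 105 and 35.7 TPM in WT. The share of leukocyte RNA in a library was not estimated. Lef1 stood at 9.22 and 9.42 TPM in the double knockout, 13.5 and 8.37 TPM in LEF1cKO and 21.4 and 20.4 TPM in WT, and Tcf7 at 13.7 and 18.0 TPM, 29.3 and 27.8 TPM, and 26.9 and 36.0 TPM in the same order of groups. Both were still read in the libraries labelled as knockouts, and a gene can keep transcript outside its deleted part.

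**Figure D1:**
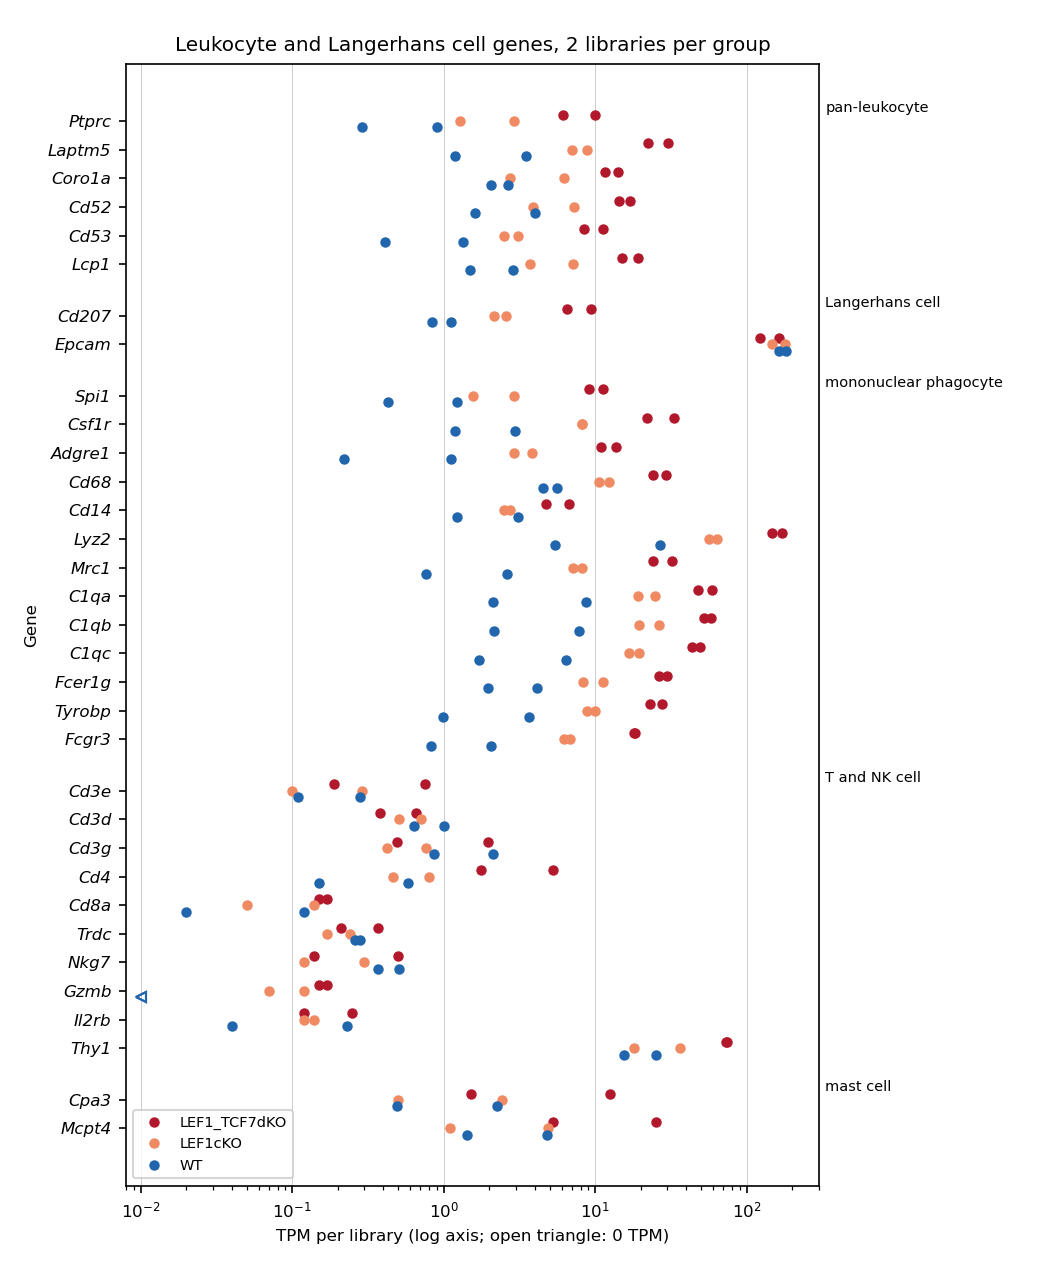
TPM of each of the 33 genes in each of the 6 libraries on a log axis, with each point 1 library and colours for LEF1_TCF7dKO, LEF1cKO and WT; genes are grouped by the cell type they mark, and the open triangle marks 0 TPM. The 13 phagocyte genes and the 6 pan-leukocyte genes lay higher in both double knockout libraries than in both WT libraries, while the TPM of the Cd3 chains overlapped between the double knockout and WT.

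Pan-leukocyte and phagocyte genes were higher in the double knockout than in WT, and T cell genes, apart from Cd4 and Thy1, did not pass the test. Levels are given as TPM (transcript abundance scaled for gene length and depth). Effects are log2 fold changes ± SE from edgeR's quasi-likelihood test on expected counts, with p adjusted over all genes by the Benjamini-Hochberg method, and "rose" means an adjusted p under 0.05. In the double knockout against WT, 21 of the 32 tested genes rose and 0 fell, where 18% of all tested genes rose and 19.6% fell. The rises comprised all 6 pan-leukocyte genes, 12 of 13 phagocyte genes, Cd207, Cd4 and Thy1. The median over the 32 genes was 2.87 on the log2 scale, beside 0.01 over all tested genes. Gzmb did not pass the filter on low counts. Another 5 genes (Cd3e, Cd4, Cd8a, Nkg7 and Il2rb) passed it although they were under its minimum in at least 1 WT library, and for such genes the filter itself favours a difference. In bulk RNA, more cells of a type and more RNA per cell cannot be told apart.

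The 6 pan-leukocyte genes rose together. Ptprc, which encodes the phosphatase CD45 carried by all nucleated blood cells, stood at 9.95 and 6.17 TPM in the double knockout, 1.29 and 2.89 TPM in LEF1cKO and 0.91 and 0.29 TPM in WT. Neither double knockout library overlapped WT or LEF1cKO, and the rise against WT was 3.77 ± 0.74, adjusted p = 0.0122. Without double knockout replicate 1, that adjusted p was 0.0638. Laptm5, a lysosomal membrane protein of blood cells, was read at 30.5 and 22.3 TPM in the double knockout, 7.07 and 8.83 TPM in LEF1cKO and 3.51 and 1.19 TPM in WT (3.28 ± 0.49, adjusted p = 0.00617 relative to WT). The groups kept the order double knockout, LEF1cKO, WT without overlap. Coro1a and Lcp1 encode the actin-binding proteins coronin 1A and L-plastin. Coro1a measured 11.7 and 14.2 TPM in the double knockout, 2.74 and 6.23 TPM in LEF1cKO and 2.64 and 2.05 TPM in WT (2.43 ± 0.44, adjusted p = 0.00975, and 0.0696 without WT replicate 2). Lcp1 measured 19.1 and 14.9 TPM in the double knockout, 3.71 and 7.1 TPM in LEF1cKO and 2.86 and 1.5 TPM in WT (2.85 ± 0.42, adjusted p = 0.00589). The lowest LEF1cKO library of Coro1a was close to its highest WT library. Cd53, a tetraspanin of leukocytes, stood at 11.3 and 8.42 TPM in the double knockout, 2.5 and 3.07 TPM in LEF1cKO and 1.35 and 0.41 TPM in WT (3.35 ± 0.55, adjusted p = 0.0076), without overlap between groups. Cd52, a small surface glycoprotein of lymphocytes and myeloid cells, was at 14.4 and 16.9 TPM in the double knockout, 3.91 and 7.27 TPM in LEF1cKO and 4.02 and 1.6 TPM in WT (2.34 ± 0.53, adjusted p = 0.0183). Its LEF1cKO and WT libraries overlapped, and its rise did not hold when WT replicate 2 or either double knockout library was left out (adjusted p up to 0.0794).

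Among phagocyte genes, the receptors and the transcription factor that define the lineage rose. Csf1r, the receptor for the macrophage growth factors CSF1 and IL-34, stood at 33.3 and 21.99 TPM in the double knockout, 8.16 and 8.19 TPM in LEF1cKO and 2.97 and 1.19 TPM in WT. The double knockout libraries lay above both others, and the rise against WT was 3.49 ± 0.43, adjusted p = 0.00436. Spi1, which encodes PU.1, was at 11.2 and 9.09 TPM in the double knockout, 1.56 and 2.91 TPM in LEF1cKO and 1.23 and 0.43 TPM in WT (3.40 ± 0.47, adjusted p = 0.00535). Adgre1, the gene of the macrophage surface protein F4/80, was at 13.6 and 10.98 TPM in the double knockout, 2.92 and 3.8 TPM in LEF1cKO and 1.12 and 0.22 TPM in WT (4.08 ± 0.69, adjusted p = 0.00814), the largest value among the 13 phagocyte genes. Its WT libraries were 5.09-fold apart. Mrc1, the mannose receptor of tissue macrophages, followed with 32 and 24.04 TPM in the double knockout, 7.1 and 8.16 TPM in LEF1cKO and 2.6 and 0.76 TPM in WT (3.96 ± 0.61, adjusted p = 0.00647).

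Genes of phagocyte effector proteins rose as well. Lyz2, the macrophage lysozyme, was the most abundant phagocyte gene in every library, with 171 and 146 TPM in the double knockout, 56.2 and 63.6 TPM in LEF1cKO and 26.6 and 5.41 TPM in WT. Its WT libraries were 4.91-fold apart and the rise in the double knockout against WT was 3.17 ± 0.67, adjusted p = 0.0148, which became 0.0704 without double knockout replicate 1. Its expected counts were not whole in any of the 6 libraries (to within 0.005 counts), so some of its reads were shared with another gene by the authors' model, and its level is uncertain to that extent. The same held in 6 libraries for Csf1r, Cd3d and Trdc, in 5 for Lcp1, Fcgr3 and Cd8a, in 4 for Ptprc, Cd52 and Mcpt4 and in 2 for Cd4. Cd68, a lysosomal glycoprotein, had the smallest adjusted p of the 33 genes: 29.6 and 24.02 TPM in the double knockout, 10.5 and 12.3 TPM in LEF1cKO and 5.57 and 4.49 TPM in WT (2.45 ± 0.19, adjusted p = 0.00227). Cd14, the lipopolysaccharide co-receptor, measured 6.74 and 4.72 TPM in the double knockout, 2.76 and 2.51 TPM in LEF1cKO and 3.1 and 1.22 TPM in WT. LEF1cKO overlapped WT, and the value against WT did not pass (1.27 ± 0.46, adjusted p = 0.0753), though without WT replicate 1 the adjusted p was 0.0368. Cd14 also passed with no filter, with DESeq2 and with limma on log2(TPM + 1) (adjusted p = 0.038, 0.0347 and 0.048). The difference between Cd14 and the other phagocyte genes was not itself tested.

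Members that carry receptor signals rose as well. Fcer1g and Tyrobp encode small adaptor chains, FcR gamma and DAP12, which carry the signalling motif for Fc and other receptors of myeloid and NK cells. Fcer1g stood at 29.6 and 26.2 TPM in the double knockout, 8.29 and 11.2 TPM in LEF1cKO and 4.13 and 1.95 TPM in WT (3.04 ± 0.39, adjusted p = 0.00457 relative to WT). Tyrobp stood at 27.6 and 22.8 TPM in the double knockout, 8.89 and 9.94 TPM in LEF1cKO and 3.68 and 0.99 TPM in WT (3.30 ± 0.58, adjusted p = 0.00881). In both genes the 3 groups did not overlap. Fcgr3, an Fc receptor for IgG that pairs with FcR gamma, was at 18.4 and 18.1 TPM in the double knockout, 6.2 and 6.85 TPM in LEF1cKO and 2.06 and 0.83 TPM in WT (3.52 ± 0.43, adjusted p = 0.00416).

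All 3 chains of complement C1q rose. C1q is built from equal numbers of A, B and C chains, whose genes lie side by side on mouse chromosome 4 (GENCODE M21 on GRCm38, which corresponds to the authors' mm10): C1qb at 136880129 to 136886187, C1qc at 136889804 to 136893065 and C1qa at 136895917 to 136898803, all on the minus strand. C1qa measured 58.96 and 48.04 TPM in the double knockout, 24.9 and 19.2 TPM in LEF1cKO and 8.74 and 2.11 TPM in WT. C1qb measured 57.96 and 52.2 TPM in the double knockout, 26.3 and 19.4 TPM in LEF1cKO and 7.87 and 2.14 TPM in WT. C1qc measured 49.5 and 43.2 TPM in the double knockout, 19.6 and 16.7 TPM in LEF1cKO and 6.37 and 1.7 TPM in WT. WT replicate 1 stood 3.68-fold to 4.14-fold above WT replicate 2 in these genes, and every knockout library was above both. Against WT, the double knockout values were 3.17 ± 0.62, adjusted p = 0.0119 for C1qa, 3.33 ± 0.58, adjusted p = 0.00873 for C1qb and 3.39 ± 0.57, adjusted p = 0.008 for C1qc. The C1qa call was lost without double knockout replicate 1 (adjusted p = 0.0623). As a share of the summed TPM of the 3 genes, C1qa made up 35.4 and 33.5% in the double knockout, 35.2 and 34.8% in LEF1cKO and 38 and 35.5% in WT. C1qc, the lowest of the 3, made up 29.7% and 30.1%, 27.7% and 30.2%, and 27.7% and 28.6% in those groups. The proportions of the chains thus differed by only a few percentage points between libraries whose C1q totals ran from 5.95 to 166 TPM.

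Promoter sequences are shown for Mrc1, C1qb and C1qc, phagocyte genes that rose together, and for the T cell gene Cd3d, which did not pass the test. Each is a RefSeq window (GRCm38.p6) from 250 bases before to 50 bases after a gene start, written 5′ to 3′ on the gene's strand. Capitals mark GAGGAA or its reverse complement TTCCTC, the core recognised by PU.1.
Mrc1 (chr2:14229164-14229463, plus strand): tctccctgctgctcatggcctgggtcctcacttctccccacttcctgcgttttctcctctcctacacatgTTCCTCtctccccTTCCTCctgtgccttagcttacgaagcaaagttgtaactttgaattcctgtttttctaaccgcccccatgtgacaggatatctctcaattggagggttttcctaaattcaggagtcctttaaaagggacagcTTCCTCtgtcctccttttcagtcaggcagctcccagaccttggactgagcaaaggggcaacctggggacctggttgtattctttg
C1qb (chr4:136886151-136886450, minus strand): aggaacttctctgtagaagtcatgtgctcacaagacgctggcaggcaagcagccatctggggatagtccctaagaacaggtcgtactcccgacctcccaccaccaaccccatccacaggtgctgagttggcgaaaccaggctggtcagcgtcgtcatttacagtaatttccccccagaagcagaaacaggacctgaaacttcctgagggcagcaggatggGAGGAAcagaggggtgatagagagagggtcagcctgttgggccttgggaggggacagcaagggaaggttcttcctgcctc
C1qc (chr4:136892865-136893164, minus strand): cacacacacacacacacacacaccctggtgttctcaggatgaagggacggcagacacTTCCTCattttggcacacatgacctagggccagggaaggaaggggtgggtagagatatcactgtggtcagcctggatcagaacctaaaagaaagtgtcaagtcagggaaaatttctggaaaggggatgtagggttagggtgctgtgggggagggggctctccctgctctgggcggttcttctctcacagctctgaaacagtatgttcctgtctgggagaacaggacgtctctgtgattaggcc
Cd3d (chr9:44981536-44981835, plus strand): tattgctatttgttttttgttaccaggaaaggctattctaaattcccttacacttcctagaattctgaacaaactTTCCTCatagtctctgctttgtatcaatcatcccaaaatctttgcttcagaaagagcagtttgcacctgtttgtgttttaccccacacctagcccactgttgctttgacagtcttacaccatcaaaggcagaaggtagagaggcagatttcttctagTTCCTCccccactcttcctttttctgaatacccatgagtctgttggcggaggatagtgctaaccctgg
The letters occur 3 times in the Mrc1 window, once each in those of C1qb and C1qc, and at 2 positions in that of Cd3d. Over windows of members in the RefSeq table, GAGGAA was present on either strand in 6 of 8 for phagocyte genes, 3 of 8 for pan-leukocyte genes and 3 of 6 for T and NK cell genes, beside 28.3% of all 32851 windows of this length. CTTTGA, the core of the LEF/TCF site, was present on either strand in 7 of 26 windows of members and 16% of all windows. A gene with 2 listed starts counts with 2 windows, and these windows can overlap. Among phagocyte genes Fcgr3 counts in this way, with GAGGAA in both of its windows. Only 22 of the 33 genes had a window, and Spi1, Csf1r, Adgre1, Cd14, C1qa and Tyrobp were without one. The windows of Lyz2 and Fcer1g, which also rose, did not hold GAGGAA. The matches describe the letters only and do not show binding.

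**Figure D2:**
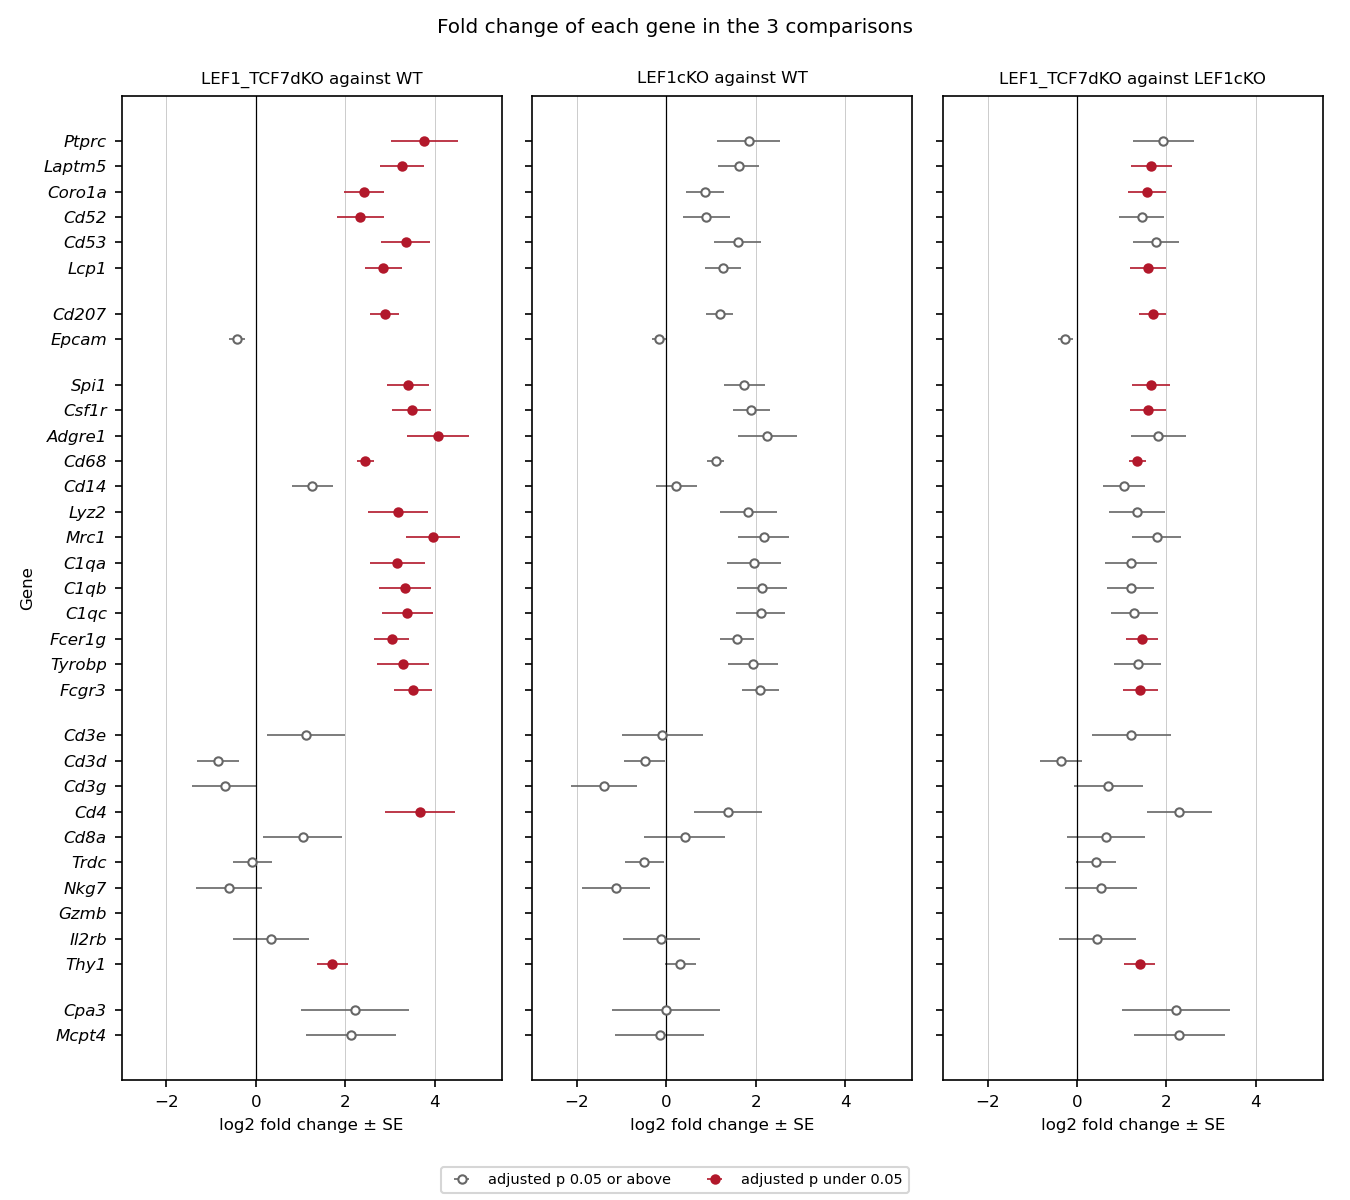
Log2 fold change ± SE of each gene in the 3 comparisons, from the edgeR fit over all 6 libraries, with filled points for an adjusted p under 0.05 and Gzmb left out because it was not tested. Phagocyte and pan-leukocyte genes lay between 1.27 and 4.08 in the double knockout against WT, of which Cd14 at 1.27 did not pass, and between 0.22 and 2.26 in LEF1cKO against WT, where 0 of 32 genes passed.

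The 2 genes used to mark Langerhans cells went separate ways. Cd207, whose product langerin forms the Birbeck granules of these cells, was at 6.54 and 9.34 TPM in the double knockout, 2.14 and 2.58 TPM in LEF1cKO and 1.12 and 0.84 TPM in WT. The 3 groups did not overlap, and Cd207 was higher in the double knockout than in WT (2.88 ± 0.32, adjusted p = 0.00365) and in LEF1cKO (1.69 ± 0.30, adjusted p = 0.0165). The call between the knockouts did not hold when LEF1cKO replicate 1 or either double knockout library was left out (adjusted p up to 0.0775). Epcam encodes an adhesion molecule of epithelia that Langerhans cells also carry. It was read at 122 and 162 TPM in the double knockout, 147 and 180.2 TPM in LEF1cKO and 164 and 181 TPM in WT, far above Cd207 in every library, and the groups overlapped (-0.41 ± 0.17, adjusted p = 0.106 against WT). Without double knockout replicate 2 its adjusted p was 0.0343, with a lower value in the double knockout. Epithelial and Langerhans cell transcript of Epcam cannot be told apart here.

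Of the T cell and NK cell genes, those of the CD3 chains had few counts in every group. The CD3 chains carry the signal of the T cell receptor, and their genes lie together on chromosome 9, Cd3g at 44969572 to 44980431, Cd3d at 44981786 to 44987339 and Cd3e at 44998740 to 45009627. Cd3e had 25 and 7 expected counts in the double knockout, 4 and 13 expected counts in LEF1cKO and 13 and 6 expected counts in WT. Cd3d had 20.1 and 12.4 expected counts in the double knockout, 19.6 and 29.5 expected counts in LEF1cKO and 42.7 and 32.02 expected counts in WT, which were not whole in any library. Cd3g had 26 and 6 expected counts in the double knockout, 10 and 14 expected counts in LEF1cKO and 42 and 26 expected counts in WT. In these counts the double knockout overlapped WT for Cd3e and for Cd3g, touching it there at 26 counts, and lay below WT for Cd3d, although the TPM of Cd3d overlapped (0.66 and 0.38 TPM in the double knockout, 1.01 and 0.64 TPM in WT). LEF1cKO lay below WT for Cd3g and Cd3d in counts, and for Cd3g in TPM. In the double knockout against WT the values were 1.12 ± 0.87, adjusted p = 0.347 for Cd3e, -0.84 ± 0.47, adjusted p = 0.206 for Cd3d and -0.70 ± 0.72, adjusted p = 0.483 for Cd3g. With these few counts, the SE of Cd3e and Cd3g allows sizeable changes in either direction.

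Other genes of the T and NK cell list were also low, apart from Cd4 and Thy1. Trdc, the constant region of the T cell receptor delta chain and a marker of the gamma-delta T cells of mouse epidermis, was at 0.37 and 0.21 TPM in the double knockout, 0.24 and 0.17 TPM in LEF1cKO and 0.26 and 0.28 TPM in WT. The double knockout overlapped both other groups, and its value relative to WT was -0.07 ± 0.43, adjusted p = 0.907. LEF1cKO lay below WT (-0.50 ± 0.43, adjusted p = 0.814). Cd8a, a co-receptor of cytotoxic T cells, was at most 0.17 TPM in any library (1.05 ± 0.89, adjusted p = 0.389). Nkg7, a granule protein of NK and T cells, was at 0.5 and 0.14 TPM in the double knockout, 0.12 and 0.3 TPM in LEF1cKO and 0.51 and 0.37 TPM in WT (-0.59 ± 0.74, adjusted p = 0.563). Il2rb, the beta chain of the receptors for IL-2 and IL-15, did not exceed 0.25 TPM (0.35 ± 0.85, adjusted p = 0.774). Gzmb, the protease granzyme B, had 5 and 6 expected counts in the double knockout, 5 and 3 expected counts in LEF1cKO and 0 and 0 expected counts in WT. A count of 0 allows up to 3 counts, by counting error only, in either WT library. The counts in the double knockout lay above that limit and those in LEF1cKO reached down to it. Gzmb was not tested in the main fit, but was in the fit with no filter.

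Cd4 and Thy1 rose although the CD3 genes did not pass. Cd4, a co-receptor of helper T cells that some macrophages, dendritic cells and Langerhans cells also express, stood at 5.27 and 1.76 TPM in the double knockout, 0.46 and 0.8 TPM in LEF1cKO and 0.58 and 0.15 TPM in WT. Both double knockout libraries were above the other groups, and the rise against WT was 3.67 ± 0.78, adjusted p = 0.0153. It did not hold without WT replicate 2 or without double knockout replicate 1 (adjusted p up to 0.0754). Thy1, a surface glycoprotein of T cells, fibroblasts and neurons, was at 73.2 and 74.4 TPM in the double knockout, 17.98 and 36.2 TPM in LEF1cKO and 25.3 and 15.6 TPM in WT. It rose in the double knockout (1.72 ± 0.35, adjusted p = 0.013 against WT), a call that did not hold when WT replicate 2 or either double knockout library was left out (adjusted p up to 0.0729). It was above the summed Cd3 chains in every library, and that sum was 3.38 and 1.06 TPM in the double knockout, 1.03 and 1.76 TPM in LEF1cKO and 3.41 and 1.61 TPM in WT.

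Mast cell genes depended on the library. Cpa3, the carboxypeptidase of mast cell granules, was at 12.6 and 1.52 TPM in the double knockout, 0.5 and 2.41 TPM in LEF1cKO and 2.26 and 0.49 TPM in WT. Mcpt4, a granule chymase, was at 25.2 and 5.29 TPM in the double knockout, 1.1 and 4.91 TPM in LEF1cKO and 4.84 and 1.43 TPM in WT. In the double knockout, replicate 1 was 8.28-fold above replicate 2 for Cpa3 and 4.77-fold for Mcpt4, and the second library lay within or just above the range of the other groups. Neither passed against WT (2.21 ± 1.21, adjusted p = 0.196 for Cpa3 and 2.14 ± 1.003, adjusted p = 0.142 for Mcpt4). With DESeq2, Mcpt4 did pass (adjusted p = 0.0475). Within LEF1cKO the pair was also apart, with replicate 2 the higher.

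LEF1cKO lay between the double knockout and WT for most phagocyte genes without passing the test against WT. There, 0 of 32 tested genes passed by edgeR (of all genes 0.601% passed, with 0.224% rising and 0.377% falling), 17 had an unadjusted p under 0.05 (9.58% of all genes) and DESeq2 called 11, where it called 3.24% of all genes. Without WT replicate 1, 9 of the genes rose, where 0.461% of all genes were called. The lowest adjusted p belonged to Cd68 (1.10 ± 0.19, adjusted p = 0.0994). Next came Fcgr3 (2.10 ± 0.41, adjusted p = 0.144) and Csf1r (1.90 ± 0.41, adjusted p = 0.182). In 18 of 32 tested genes both LEF1cKO libraries were above both WT libraries in normalized counts, which holds for 21.1% of all genes. All 13 phagocyte genes had positive values, from 0.22 ± 0.46 for Cd14 to 2.26 ± 0.66 for Adgre1, with a median of 1.94, beside 0.01 for all genes. Pan-leukocyte genes had a median of 1.43, and T and NK cell genes one of -0.11, with values from -1.40 ± 0.74 for Cd3g to 1.37 ± 0.76 for Cd4. Cpa3 and Mcpt4 were at -0.01 ± 1.197 and -0.15 ± 0.99.

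Between the knockouts, which differ by the Tcf7-/- allele in their labels, 10 of 32 tested genes rose and 0 fell in the double knockout, where 11.2% of all genes rose and 14% fell. The rises were Cd68 (1.35 ± 0.19, adjusted p = 0.0116), Cd207, Thy1 (1.40 ± 0.34, adjusted p = 0.0336), Fcer1g, Lcp1, Csf1r, Spi1, Laptm5, Fcgr3 and Coro1a, whose values ran from 1.35 ± 0.19 for Cd68 to 1.69 ± 0.30 for Cd207. The 3 C1q chains did not pass, at 1.21 ± 0.57 for C1qa, 1.198 ± 0.53 for C1qb and 1.29 ± 0.53 for C1qc (lowest adjusted p = 0.119). In 24 of the 32 genes both double knockout libraries exceeded both LEF1cKO libraries in normalized counts, beside 33.4% of all genes. The number of calls depended on single libraries: it was 18 without WT replicate 1 (10.7% of all genes were called there), 18 without WT replicate 2 (10.3%), 1 without LEF1cKO replicate 1 (7.94%) and 6 without LEF1cKO replicate 2 (27.3%). It was 0 without double knockout replicate 1, where 1 gene of all passed, and 1 without double knockout replicate 2 (13.9%). The comparisons share libraries, so their values are not independent of each other.

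The 2 WT libraries differed in leukocyte genes. WT replicate 1 exceeded WT replicate 2 in 30 of the 33 genes, with Epcam and Trdc the other way and Gzmb at 0 in both. The ratio ran from 1.24 (Cd68) to 5.09 (Adgre1) among phagocyte genes and from 1.29 (Coro1a) to 3.29 (Cd53) among pan-leukocyte genes. In the double knockout the same ratio ran from 1.02 to 1.51 for phagocyte genes, and in LEF1cKO from 0.536 to 1.36. Even so, 24 of 32 tested genes were higher in both double knockout libraries than in both WT libraries in normalized counts, beside 37.6% of all genes. For the double knockout against WT, the number of members called was 22 without WT replicate 1 (13% of all genes were called there), 17 without WT replicate 2 (9.53%) and 15 without double knockout replicate 1 (14.6%). Without double knockout replicate 2 it was 20 (27.4% of all genes), made up of 19 rises and the fall of Epcam. In the fit of all libraries 37.6% of all genes were called. Of the 21 rises, 14 passed in each of the 6 fits that left out 1 library.

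To compare cell types within a library, each level was divided by the summed TPM of the 6 pan-leukocyte genes. Whether this sum measures the leukocyte RNA of a library was not tested. A ratio also falls where the sum rises and the gene's own level does not. That sum was 96.9 and 82.99 TPM in the double knockout, 21.2 and 35.4 TPM in LEF1cKO and 15.3 and 7.04 TPM in WT. The summed phagocyte genes stood at 5.57 and 5.44 in the double knockout, 8.64 and 5.22 in LEF1cKO and 4.97 and 3.33 in WT times the sum. WT lay below both knockouts without overlap, and the knockouts overlapped. The ratio of Cd207 overlapped in all groups, at 0.0675 and 0.113 in the double knockout, 0.101 and 0.0729 in LEF1cKO and 0.0733 and 0.119 in WT. For the summed Cd3 chains the ratio was 0.0349 and 0.0128 in the double knockout, 0.0485 and 0.0497 in LEF1cKO and 0.223 and 0.229 in WT. It was lower in both knockouts than in WT without overlap. Nkg7 showed the same order, at 0.00516 and 0.00169 in the double knockout, 0.00566 and 0.00848 in LEF1cKO and 0.0334 and 0.0526 in WT, and so did Trdc, at 0.00382 and 0.00253 in the double knockout, 0.0113 and 0.0048 in LEF1cKO and 0.017 and 0.0398 in WT. The ratio of Cd14 was 0.0696 and 0.0569 in the double knockout, 0.13 and 0.0709 in LEF1cKO and 0.203 and 0.173 in WT, lower in both knockouts than in WT without overlap. Summed mast cell genes stood at 0.391 and 0.0821 in the double knockout, 0.0754 and 0.207 in LEF1cKO and 0.464 and 0.273 in WT, with overlap between the double knockout and WT. Among the other T and NK cell genes, the ratio of Cd4 overlapped between all groups, at 0.0544 and 0.0212 in the double knockout, 0.0217 and 0.0226 in LEF1cKO and 0.0379 and 0.0213 in WT. Cd8a and Il2rb overlapped between LEF1cKO and WT and lay below WT in the double knockout. Thy1 was lower in both knockouts than in WT, at 0.756 and 0.897 in the double knockout, 0.847 and 1.02 in LEF1cKO and 1.66 and 2.21 in WT. Gzmb was at 0 in both WT libraries and above 0 in all knockout libraries. These ratios are given as descriptions, with no test, and those of Cd3 chains, Nkg7 and Trdc rest on counts of 3 to 43 per gene and library.

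**Figure D3:**
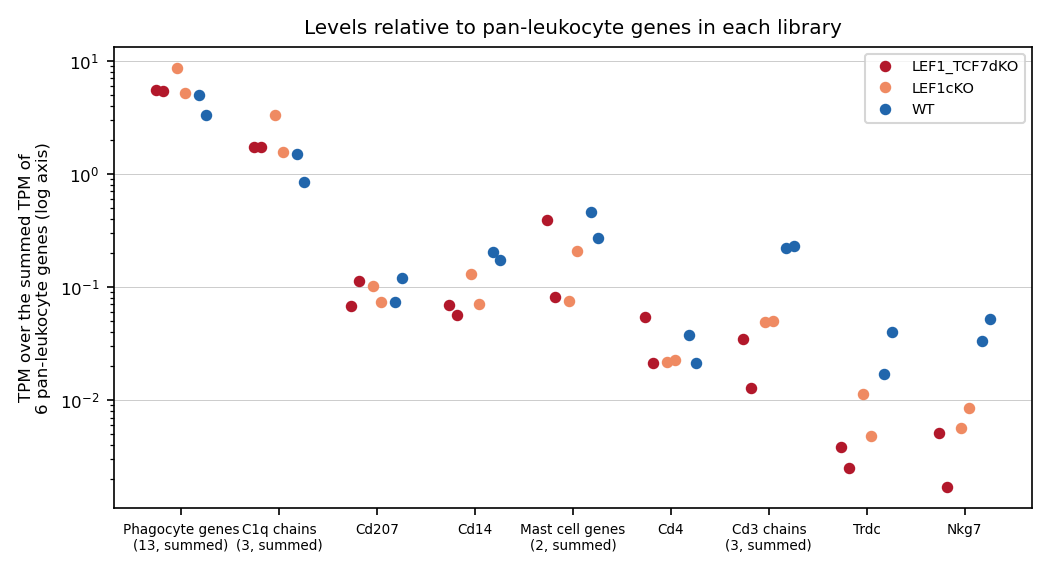
Level of each gene or summed set over the summed TPM of 6 pan-leukocyte genes, on a log axis, 1 point per library, in LEF1_TCF7dKO, LEF1cKO and WT. Cd207 overlapped between the groups, whereas the summed Cd3 chains lay at 0.0349 and 0.0128 in the double knockout, 0.0485 and 0.0497 in LEF1cKO and 0.223 and 0.229 in WT.

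Leukocyte genes outside the 33 were counted in the same way for the double knockout against WT, where 18% of all tested genes rose. Of 12 further pan-leukocyte genes 11 rose, among them Fermt3, an integrin activator of blood cells (2.86 ± 0.33, adjusted p = 0.00398), Cd37, a tetraspanin (3.46 ± 0.54, adjusted p = 0.00682), and Ptpn6, a phosphatase also expressed in epithelia (0.83 ± 0.13, adjusted p = 0.0066). Of 12 further macrophage and monocyte genes 11 rose, including Mpeg1, a pore-forming protein of macrophages (4.17 ± 0.59, adjusted p = 0.00557), Cybb, the NADPH oxidase subunit (4.03 ± 0.59, adjusted p = 0.0058), and Ms4a7 (3.03 ± 0.48, adjusted p = 0.00697). Of the genes that rose, 3 pan-leukocyte genes (Cd37, Cd48 and Sash3) and 1 macrophage gene (Lst1) were under the minimum of the filter in 1 WT library. The macrophage gene that did not pass was Cx3cr1, at 0.38 ± 0.51, adjusted p = 0.596. Of 11 dendritic and Langerhans cell genes 8 rose, with Irf8, a transcription factor of dendritic cells and monocytes (2.47 ± 0.35, adjusted p = 0.00572), Cd86, a costimulatory ligand (3.24 ± 0.53, adjusted p = 0.00749), and Itgax, the integrin CD11c (3.70 ± 0.62, adjusted p = 0.00792), having the smallest p. Flt3 and Ccr7, also among the 8, were under the minimum of the filter in 1 WT library. The 3 that did not pass were Ly75 (-0.50 ± 0.21, adjusted p = 0.11), Mfge8 (0.25 ± 0.095, adjusted p = 0.0834) and Cd1d1 (0.24 ± 0.28, adjusted p = 0.531).

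Few genes of the lymphocyte lists passed. Of 11 tested T and NK cell genes outside the 33, Cd28 and Klrk1 rose and Lck fell, where 18% of all tested genes rose and 19.6% fell. Cd28, a costimulatory receptor, had 10 and 16 expected counts in the double knockout, 3 and 13 expected counts in LEF1cKO and 0 and 1 expected counts in WT (adjusted p = 0.021), too few in WT for a fold change. Klrk1, the receptor NKG2D, had 40 and 19 expected counts in the double knockout, 9 and 16 expected counts in LEF1cKO and 7 and 11 expected counts in WT (2.12 ± 0.57, adjusted p = 0.0318). Cd28 and Klrk1 were under the minimum of the filter in both WT libraries and passed it through knockout libraries, so the filter favours their calls. Lck, a tyrosine kinase of T cells, was at 2.91 and 4.89 TPM in the double knockout, 13.9 and 10.97 TPM in LEF1cKO and 11.8 and 13.1 TPM in WT, which is above every Cd3 chain in the same library, and it was lower in the double knockout (-1.87 ± 0.29, adjusted p = 0.00659 relative to WT). In the B and plasma cell list 2 of 5 genes were tested and 0 passed, with Ms4a1 (-0.11 ± 0.32, adjusted p = 0.812) and Cd79a (-0.41 ± 0.42, adjusted p = 0.472) the most abundant. In the neutrophil list 2 of 6 were tested and 0 passed. S100a8 measured 0.57 and 5.67 TPM in the double knockout, 1.3 and 3.86 TPM in LEF1cKO and 1.38 and 0.88 TPM in WT, and S100a9 0.63 and 6.1 TPM in the double knockout, 0.21 and 2.58 TPM in LEF1cKO and 0.39 and 0.83 TPM in WT, each highest in double knockout replicate 2. Of 6 tested mast cell and basophil genes, only Hdc, histidine decarboxylase, rose (1.95 ± 0.60, adjusted p = 0.0457). That is near the share of all tested genes that rose, 18%. Hdc had 104.56 and 37.31 expected counts in the double knockout, 22.16 and 22.08 in LEF1cKO and 27.53 and 19.89 in WT, highest in double knockout replicate 1. In LEF1cKO against WT, 0 genes of these further leukocyte lists passed, where 0.601% of all genes did. Against LEF1cKO, 5 of 12 further pan-leukocyte genes, 2 of 11 dendritic or Langerhans cell genes and 1 of 12 macrophage genes rose in the double knockout. Lck fell, as the only call among 11 tested T and NK cell genes. Over all genes 11.2% rose and 14% fell there, so the macrophage count is not above the share of all genes.

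Genes of other cells of the skin were higher in the double knockout as well. All 8 fibroblast genes rose against WT, and their summed level was 2473 and 1947 TPM in the double knockout, 545 and 1040 TPM in LEF1cKO and 480 and 257 TPM in WT, with no gene of the list at 0. Col1a2, a collagen chain, rose by 3.58 ± 0.54, adjusted p = 0.00633, Col1a1 by 3.65 ± 0.59, adjusted p = 0.00731, and Vim, the intermediate filament of mesenchymal cells, by 1.65 ± 0.26, adjusted p = 0.00699. All 7 endothelial and mural genes rose, with a summed level of 214 and 72.02 TPM in the double knockout, 16.1 and 18.4 TPM in LEF1cKO and 27.6 and 14.3 TPM in WT. Acta2 of smooth muscle (2.69 ± 0.53, adjusted p = 0.0121), Cdh5 of endothelium (3.45 ± 0.73, adjusted p = 0.0152) and Vwf (3.27 ± 0.75, adjusted p = 0.0194) had the smallest p. Acta2 alone made up most of both double knockout sums, at 115 and 52.01 TPM, so they say less about endothelium. Cdh5 was at 12.3 and 2.41 TPM in the double knockout and 0.67 and 0.54 TPM in WT. Vwf was at 24.04 and 4.62 TPM and at 2.8 and 1.66 TPM in the same groups. Both were far higher in double knockout replicate 1 than in replicate 2. Erythrocyte genes, of which 0 of 5 passed, summed to 165 and 6.55 TPM in the double knockout, 11.6 and 3.52 TPM in LEF1cKO and 19.7 and 4.59 TPM in WT. Their high value was in double knockout replicate 1, the library with the highest Cpa3, Mcpt4 and endothelial and mural sum. Hbb-bt was at 77.6 and 0.65 TPM in the 2 double knockout libraries and Hbb-bs at 59.1 and 1.18 TPM. The part of blood or dermal RNA in the leukocyte values was not tested.

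Epithelial genes also differed between the groups. Of 8 genes of the differentiated epidermis 7 rose in the double knockout against WT, led by Krt78 (5.13 ± 0.20, adjusted p = 0.000577), Krt1 (3.04 ± 0.16, adjusted p = 0.00108) and Krt77 (4.67 ± 0.28, adjusted p = 0.00133), and the list summed to 11810 and 11450 TPM in the double knockout, 2944 and 2979 TPM in LEF1cKO and 1259 and 977 TPM in WT. Of 12 genes listed for the sorted follicle epithelium 6 rose and 4 fell, where 18% of all tested genes rose and 19.6% fell. The falls included Lhx2 (-1.38 ± 0.27, adjusted p = 0.0118), Lgr5 (-1.07 ± 0.25, adjusted p = 0.0208) and Sox9 (-0.71 ± 0.16, adjusted p = 0.0198). Among the 12, the sort markers Cd34 (1.54 ± 0.28, adjusted p = 0.00954) and Ly6a, which encodes Sca-1 (2.22 ± 0.41, adjusted p = 0.00968), rose. Cdh3, which encodes P-cadherin, fell (-0.93 ± 0.18, adjusted p = 0.0109). The sort marker Itgb1, which encodes integrin b1, did not pass (-0.33 ± 0.11, adjusted p = 0.0633), nor did Krt5 (0.42 ± 0.22, adjusted p = 0.18). The other rises were Krt15 (1.21 ± 0.29, adjusted p = 0.0225), Krt14 (1.02 ± 0.25, adjusted p = 0.0231), Cdh1 (0.76 ± 0.145, adjusted p = 0.0111) and Itga6 (0.49 ± 0.10, adjusted p = 0.0144). Cd34 and Ly6a are also expressed by endothelial cells, fibroblasts and some leukocytes. Melanocyte genes summed to 277 and 503 TPM in the double knockout, 380.3 and 252 TPM in LEF1cKO and 592 and 404 TPM in WT. Of these, 1 of 6, Sox10, rose (0.77 ± 0.17, adjusted p = 0.016), which is near the share over all genes. Whether the makeup of the sorted cells accounts for the leukocyte values was not tested.

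**Figure D4:**
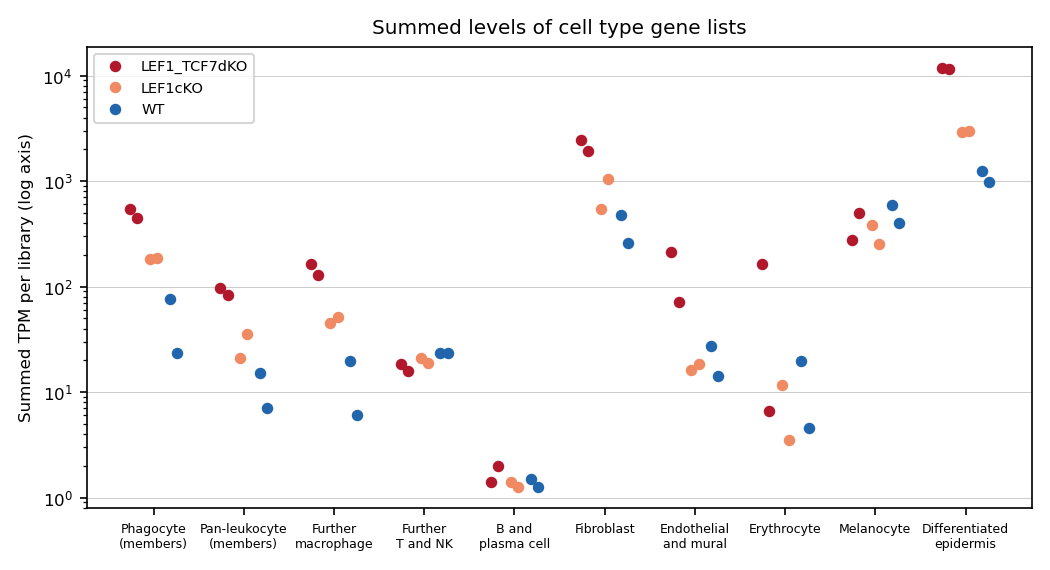
Summed TPM of 10 lists of cell type genes in each library, on a log axis, for LEF1_TCF7dKO, LEF1cKO and WT. Phagocyte, pan-leukocyte, fibroblast and differentiated epidermis sums were higher in both double knockout libraries than in both WT libraries. Endothelial and mural sums, mostly Acta2 in the double knockout, were 214 and 72.0 TPM there against 27.6 and 14.3 TPM in WT. B and plasma cell sums stayed between 1.25 and 2 TPM in all libraries.

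The genes whose pattern was most like that of the 6 pan-leukocyte genes were sought among 11366 tested genes outside the 33 with a mean of at least 5 TPM, by Pearson's r over the 6 libraries between log2(TPM + 1) and the mean standardized level of the 6 genes. The 5 highest were Il1b (r = 0.999), which encodes the cytokine IL-1 beta, Cd209a (0.999), a C-type lectin of dendritic cells, Igf1 (0.999), insulin-like growth factor 1, Smpd1 (0.998), acid sphingomyelinase, and Smim14 (0.998). Il1b stood at 43.4 and 40.6 TPM in the double knockout, 6.51 and 12 TPM in LEF1cKO and 4.81 and 2.08 TPM in WT, and Cd209a at 16.4 and 15.5 TPM in the double knockout, 2.16 and 4.44 TPM in LEF1cKO and 1.49 and 0.36 TPM in WT. The size of a change does not enter r, and Smpd1 and Smim14 changed far less. Smpd1 was at 22.73 and 22.64 TPM in the double knockout, 16.35 and 18.52 TPM in LEF1cKO and 15.5 and 14.04 TPM in WT. Smim14 was at 52.78 and 50.15 TPM, 36.9 and 40.7 TPM, and 33.47 and 29.55 TPM in those groups. Among the 33, r with the same profile was 0.996 for Spi1, 0.965 for Cd207, 0.906 for Cd14, 0.697 for Cpa3, 0.0518 for Cd3g and -0.427 for Cd3d. The 6 libraries fall into 3 groups, so these values describe the order of the groups and are no test.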

How the data were processed

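RNA was sequenced from 6 libraries of sorted hair germ stem cells, 2 each of LEF1_TCF7dKO, LEF1cKO and WT, grouped by their titles. RSEM 1.2.30, Bowtie2 2.2.9 and build mm10 are named in the submitters' processing notes, whose annotation release is not given here. The authors deposited an RSEM expected count for each gene, in which reads that match several genes are split by the model. TPM values were also deposited, scaled by the authors for effective length. Spike-in identifiers, 92 in number, were all at 0 and left out.

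After rounding, counts went into edgeR 4.0.16 (R 4.3.3): TMM factors (0.962 to 1.04), filterByExpr by group (minimum count 10), 1 quasi-likelihood fit over all libraries with 3 residual degrees of freedom, and Benjamini-Hochberg adjustment at 0.05 per comparison. The prior degrees of freedom were 3.11 and the biological coefficient of variation was 0.232. The test was also run on simulated counts with 2-fold and 4-fold changes planted, at this same variation for every gene. It found 23% and 81.8% of them for the double knockout against WT. The shares were 14.6% and 87.8% for LEF1cKO against WT and 12.1% and 90.8% between the knockouts. They do not carry over to genes that vary more, such as Adgre1, whose WT libraries were 5.09-fold apart. Depth was 40480684 to 63220003 counts per library. Intervals and floors cover counting error only.

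The members and lists were chosen with earlier results of these data known. All members are named. Genes from the other lists are those with the 3 smallest p among the changed genes in the double knockout against WT, or otherwise the 2 highest in TPM. Beside these, Cx3cr1, Cd48, Sash3, Lst1, Flt3, Ccr7, Ly75, Mfge8, Cd1d1, Krt5, Krt14, Krt15, Itga6, Itgb1, Cdh1, Lhx2, Lgr5 and Sox9 were named after their values were seen. Alternatives were RLE factors, library size only, no filter, DESeq2 1.42.0, limma 3.58.1 on log2 TPM with a pseudocount of 1 or 0.1, a fit of only the 2 groups compared, the replicate number as a block, and leaving out each library, in which case the remaining library of that group is taken to vary as the others do. FPKM was not used. Positions came from GENCODE M21, in which all 33 identifiers were found, and promoter sequences from RefSeq (GRCm38.p6).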

Additional observations from a re-analysis of the deposited data

How the results depend on the processing

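The 21 rises in the double knockout against WT were called under all 8 other settings. No filter, which let Gzmb be tested, and DESeq2 each called 23 members. The number of members called stayed between 15 and 22 when 1 library was left out. In LEF1cKO against WT, where 0 members passed, no filter gave 9 and DESeq2 gave 11, and the leave-outs gave 0 to 9. Between the knockouts, in place of 10, no filter gave 17, DESeq2 19, only the 2 groups compared 18, and the replicate block 4, while the leave-outs gave 0 to 18. Over all genes, the 118 calls in LEF1cKO became 440 with no filter and 637 with DESeq2 (58.6% of them rises, 17.8% with limma on log2(TPM + 1), against 37.3%), and 78 to 138 in the leave-outs. In the leave-outs, the 7389 calls in the double knockout against WT became 1967 to 8099 and the 4951 between the knockouts became 1 to 5622, and with only the 2 groups compared the 4951 became 2584. The cause was not tested, apart from the fewer samples of a leave-out.

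Of 32 tested members, the sign changed only where the main value did not pass. In LEF1cKO against WT, Cpa3 stood at 0.04 with library size only, 0.04 and 0.06 with limma at pseudocounts of 1 and 0.1, and 0.69 with the replicate block. With that block Cd3e stood at 0.10, Il2rb at 0.16 and Mcpt4 at 0.27, and with limma at 0.1 Il2rb stood at 0.10. Trdc in the double knockout against WT stood at 0.00, 0.02 and 0.05 with library size only and the limma fits. Leave-outs spanned, in LEF1cKO against WT, -1.48 to 1.46 for Cpa3, -1.54 to 0.96 for Mcpt4, -1.02 to 0.70 for Cd3e, -0.90 to 1.61 for Il2rb, -0.43 to 2.30 for Cd8a, -0.30 to 1.03 for Cd14 and -0.22 to 0.71 for Thy1. In the double knockout against WT they spanned -0.08 to 1.93 for Cd3e, -2.12 to 0.01 for Cd3g, -0.44 to 2.08 for Il2rb, -0.48 to 0.25 for Trdc and -1.70 to 0.03 for Nkg7, and against LEF1cKO -0.73 to 1.41 for Cd3g, -0.58 to 1.26 for Nkg7 and -0.15 to 0.89 for Il2rb. Depth limits these genes, which had at most 43 counts per library except Cpa3, Mcpt4, Cd14 and Thy1.

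Same-numbered libraries share only a number in the labels. Their deviations from the group means correlated at 0.0559 between the double knockout and WT, -0.0422 between LEF1cKO and WT and -0.0277 between the knockouts, so the paired fit was not preferred. It moved the calls between the knockouts to 4 members and 3632 genes, and gave 22 members in the double knockout against WT.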
